A study of Rattus norvegicus with 49 samples.

Results

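Genes that mark bile duct epithelium and liver progenitor cells, and genes of the Notch pathway, were followed in rat liver after 90 days of furan. The set holds 10 genes, namely Krt19, Krt7, Epcam, Sox9, Prom1, Spp1, Tspan8, Notch1, Jag1 and Hes1. Their probes were found through the RefSeq accession that the array lists for each probe, without use of any measured value. Of the 10 genes, 9 had a probe among the 15154 gene symbols named on the array, and Sox9 had none and was not analysed here. The 9 genes were measured by 11 of 30367 probes, and 10 of these, for 8 genes, were among the 17661 probes bright enough to be tested. Hes1 was not, because only 1 of 49 arrays showed a liver signal well above background for it.

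Bile ducts are lined by cholangiocytes, which build their cytoskeleton from keratins that hepatocytes normally lack and which carry surface proteins such as Epcam. When the liver is injured for long, small duct-like cells with some of the same proteins, called progenitor or ductular cells, can appear around the portal tracts. Notch signalling, in which a ligand such as Jag1 on one cell triggers cleavage of a receptor such as Notch1 on its neighbour, is known for directing liver precursors toward the bile duct fate, with Hes1 and Sox9 among its target genes.

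Furan forms in heated food and is toxic to rodent liver. Rats of the inbred F344 strain, of both sexes and aged 7 to 8 weeks at the start, were gavaged on 5 days of the week for 90 days. Controls received corn oil alone (0 mg/kg), and the other groups received furan in corn oil, at a low dose of 0.03, middle doses of 0.12 and 0.5, and a high dose of 2 mg/kg. There were 10 groups of 5 rats, except for 4 males at 0.03 mg/kg, and each rat gave 1 array of its frozen liver. Liver RNA was labelled with Cy5 and read against a universal rat reference RNA labelled with Cy3, without dye swaps. Every level below is therefore a log2 ratio of liver over reference, and a value of 0 means that both channels were equal.

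The arrays lay on 8 slides and were not equally bright. On 48 arrays, 37.9% to 71.1% of spots were well above background in the liver channel, against 5.06% on 1 dim array, that of male 26 in the 0.03 mg/kg group. Slides 5 and 6, with medians of 43.2% and 45.0%, held 10 arrays of treated rats and 0 of controls. The log2 ratios also spread less on slides 5 to 8 than on slides 1 to 4, with a median SD over probes of 1.35 on 25 arrays against 1.64 on 23 arrays. In each sex, 4 of 5 controls lay on slides 1 to 4, while 3 of 5 males and 4 of 5 females at 2 mg/kg lay on slides 5 to 8. A ratio far from 0 was thus read closer to 0 in most rats at 2 mg/kg. Slide was a block in the tests, which removes a shift shared by the arrays of a slide but not a difference in scale, and values from ratios scaled to an equal spread stand beside results that they change. A hepatocyte list (Alb, Apoa1, Ttr and 7 others) averaged between 4.84 and 7.05 on all arrays of controls and of the 2 mg/kg groups. Since whole liver was measured, more cells of a type and more RNA per cell cannot be told apart.

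The first question was which of these genes changed with dose. A gene was called when the Benjamini-Hochberg adjusted p of limma over all tested probes was at most 0.05 and the fold change at least 1.5. In males at 2 mg/kg, 4 of the 8 tested genes were called, all of them higher than in controls, namely Krt19, Epcam, Prom1 and Tspan8. Over all probes, 3.83% were called in that comparison and 2.44% were called and higher. Rises made up 63.7% of those calls, but 78.8% with ratios scaled to an equal spread and 89.1% with median centring in place of loess, which moved the median of all probes by 0.11. In other settings the share was lower, at 52.6% without the dim array, 50.3% with array weights, 48.5% with the liver channel alone and 39% without slide 8. The median log2 change of the 8 genes was 0.73, and the median over all probes was -0.02. Among females given 2 mg/kg, 1 of the 8 genes was called, Tspan8, and it was higher. The background there was 0.657% of probes called and 0.374% called and higher, and the median change of the 8 genes was -0.02. Tspan8 entered the test only because its signal was bright enough in males at 2 mg/kg, a group where it was high. Among the other 7 genes, 3 were called in males, with a median change of 0.70, and 0 in females, with a median of -0.06. At an unadjusted limma p under 0.05, 4 of the 8 genes passed in each sex, beside 27.4% of all probes in males and 17.7% in females. The plot of changes at 2 mg/kg shows each probe with its interval.

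**Figure D1:**
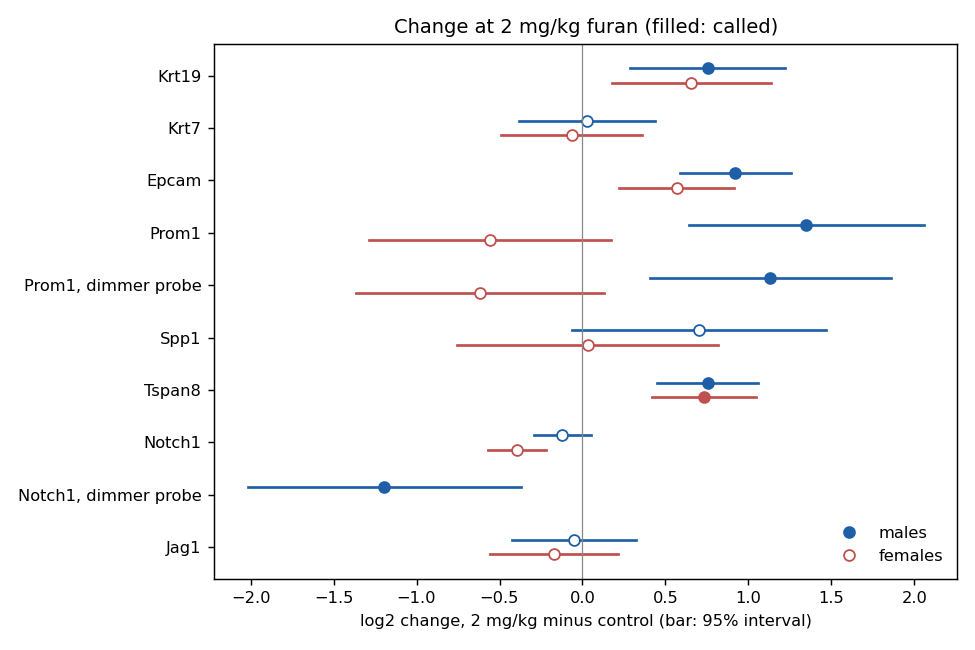
Log2 change from control to 2 mg/kg furan for each tested probe of the 8 genes (x axis), with slide as a block, in males (blue) and females (red). Points are limma estimates, bars are 95% intervals, and filled points were called. Krt19, Epcam, Prom1 and Tspan8 lie right of 0 in males, with Prom1 at 1.35, and the dimmer Notch1 probe is left out for females because it was not well above background in them.

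Krt19 codes for a keratin of bile duct cells. In control males its log2 ratio was 0.22, -0.63, -0.29, 0.38 and -0.02, and in males at 2 mg/kg it was 0.23, 0.94, 0.62, 0.16 and 1.53. Of the 5 treated males, 3 lay above every control, and the other two fell inside the control range. The log2 change was 0.76 ± 0.23 (SE), or 1.69-fold, with a limma adjusted p of 0.0235. In females the ratios went from 0.01, 0.30, -0.51, 0.25 and -0.21 in controls to 0.25, 1.36, -0.08, 0.62 and 0.86 at 2 mg/kg. Again 3 of 5 treated rats lay above all controls, but the change of 0.66 ± 0.24 had an adjusted p of 0.13 and was not called. On single slides that held both a treated and a control rat, the difference was -0.07, 0.24 and 1.55 in males (slides 2, 4 and 8) and 0.84 and 1.06 in females (slides 2 and 7). The male call lay close to the threshold. Without slide 8 the change was 0.55 with an adjusted p of 0.13, and without male 87, the highest rat and on that slide, it was 0.53 with an adjusted p of 0.145. The call was also lost without control males 3, 4 or 6 (adjusted p = 0.0771, 0.0503 and 0.0566), without the slide block (0.76, adjusted p = 0.0559) and with the males fitted alone (0.77, adjusted p = 0.107).

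Krt7, the keratin that pairs with Krt19 in bile duct cells, gave a different picture. Its ratios ran from -3.59 to -2.20 in control males and from -3.58 to -1.97 in males at 2 mg/kg, so the ranges overlapped almost entirely. In females they ran from -3.80 to -3.00 in controls and from -3.46 to -2.05 at 2 mg/kg, with 4 of 5 treated rats above all controls. With slide as a block the change was 0.03 ± 0.20 in males, with an adjusted p of 0.948, and -0.06 ± 0.21 in females, with an adjusted p of 0.918. The 95% intervals, from -0.39 to 0.44 and from -0.49 to 0.36, lie inside a 1.5-fold change in either direction. Without the block the female value was 0.81 (limma adjusted p = 0.244), and the 4 higher rats lay on slides 5, 7 and 8. Within slides 2 and 7 the female difference was -0.07 and 0.22. Ratios scaled to an equal spread gave -0.43 (adjusted p = 0.301), so the sign in females differed between settings.

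Epcam codes for an adhesion protein of bile duct and progenitor cell surfaces. Its ratio in control males was -1.56, -1.23, -1.12, -1.29 and -0.67, and at 2 mg/kg it was -0.42, -0.25, 0.18, -1.13 and 0.62. All treated males but one (male 86, on slide 2) exceeded every control. The change of 0.92 ± 0.17, or 1.89-fold, had a limma adjusted p of 0.000323 and was called under all 18 alternative settings and without any single rat of either group, with values from 0.74 to 1.43. Within slides 2, 4 and 8 the difference was 0.43, 1.47 and 1.29. Since the control ratios lie below 0, where slides 5 to 8 read closer to 0, the ratios were also scaled to an equal spread on every array, which gave 0.85 with an adjusted p of 0.00167. In females the ratio went from -1.41, -0.75, -0.91, -1.27 and -1.48 to -0.38, -0.12, -0.21, -0.81 and -0.46, with 4 of 5 treated rats above all controls. That change of 0.57 ± 0.17 was 1.48-fold, under the fold limit, and its adjusted p was 0.0668. It was called in 6 of 18 alternative settings, among them the one without the dim array (0.60, adjusted p = 0.0256).

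**Figure D2:**
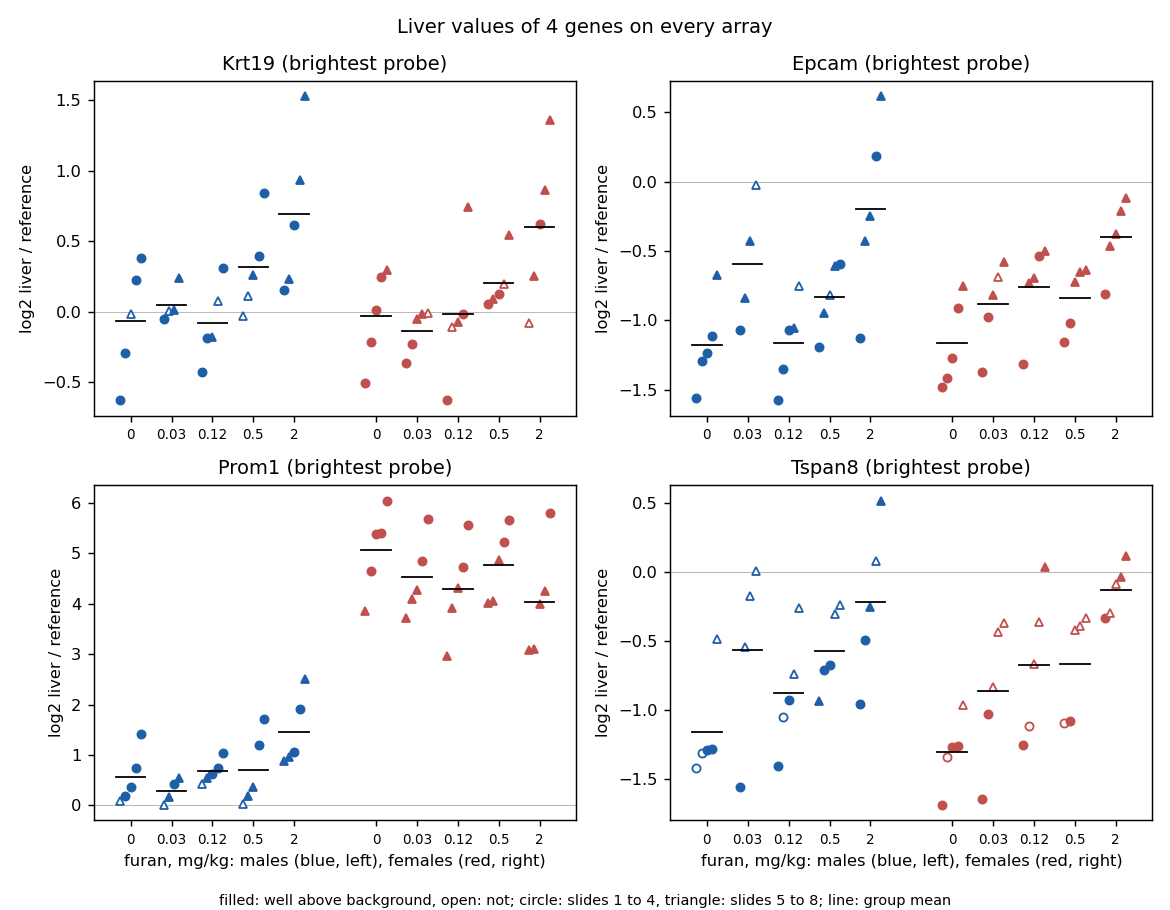
Log2 ratio of liver over reference (y axis) on each array for Krt19, Epcam, Prom1 and Tspan8 by furan dose in mg/kg (x axis), males blue and females red, with a line at each group mean. Open points were not well above background, circles mark slides 1 to 4 and triangles slides 5 to 8. The 2 mg/kg males reach above the controls for all 4 genes, and the female Prom1 values lie far above the male ones.

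Prom1 codes for prominin, a membrane protein used as a progenitor cell marker, and was read by a pair of probes. On the brighter probe, control males read 0.75, 0.19, 0.36, 1.42 and 0.09 and males at 2 mg/kg read 0.87, 0.96, 1.92, 1.07 and 2.50. Only 2 treated males, 84 and 87, were above every control. The change was 1.35 ± 0.35, or 2.54-fold, with a limma adjusted p of 0.00802, and the dimmer probe gave 1.13 ± 0.36 with an adjusted p of 0.0292. The dimmer probe was called in 9 of 17 alternative settings, and leaving out single rats lost its call for 5 of 10 rats. On the brighter probe the size rested in part on slide 8, where the difference was 2.41, against 0.32 and 0.49 on slides 2 and 4. Without male 87 the change was 1.01 with an adjusted p of 0.0608, and without the slide block 0.90 with an adjusted p of 0.266. In females the same probe read 4.65, 3.86, 5.40, 5.37 and 6.04 in controls and 3.08, 3.99, 3.1, 5.80 and 4.25 at 2 mg/kg, a change of -0.56 ± 0.36 with an adjusted p of 0.435. Its sign depended on the scale, since ratios scaled to an equal spread gave 0.47.

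Tspan8 codes for a tetraspanin, a membrane protein of several epithelia. It was well above background on 23 of 49 arrays, and males at 2 mg/kg were the only group that reached the 4 arrays needed for testing. In males 2 of 5 controls and 4 of 5 rats at 2 mg/kg were that bright, and 3 of 5 females in both groups. Control males read -1.29, -1.42, -1.31, -1.28 and -0.48, and males at 2 mg/kg read 0.08, -0.25, -0.49, -0.96 and 0.52. Control females read -1.68, -0.96, -1.34, -1.26 and -1.26, and females at 2 mg/kg read -0.09, 0.11, -0.29, -0.33 and -0.04. All 5 treated females lay above all control females, while in males 3 of 5 did so, because control male 6 on slide 8 read far above the other controls. The changes were 0.75 ± 0.15 in males (adjusted p = 0.000843) and 0.73 ± 0.16 in females (adjusted p = 0.00931), or 1.69-fold and 1.66-fold, and both were called. With no filter on brightness, which leaves out the choice by that group, the adjusted p was 0.00118 in males and 0.0124 in females. Within slides the treated rat was higher each time, by 0.33, 0.79 and 1.0 in males and by 0.92 and 1.08 in females.

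Much of the Tspan8 signal was thus close to background. The gene was left untested when a probe had to be well above background on most of the 49 arrays. In the other 17 alternative settings it was called in males each time and in females in 14.

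Spp1 codes for osteopontin, a secreted protein made by bile duct cells and also by activated macrophages and stellate cells. Its ratio was low against the reference, at -4.14, -4.40, -4.20, -4.56 and -4.27 in control males. At 2 mg/kg it was -3.52, -4.22, -3.43, -4.30 and -2.48, with 3 of 5 treated males above all controls and male 87 highest. The change of 0.70 ± 0.38 was not called (limma adjusted p = 0.225). The spread in that test included the dim array, which read -0.39 where the next male at 0.03 mg/kg read -4.09, and without that array the change was 0.69 with an adjusted p of 0.00834 and was called. In females it ran from -4.83 to -4.30 in controls and from -4.31 to -3.92 at 2 mg/kg, with 4 of 5 treated rats above all controls. With slide as a block the female change was 0.03 ± 0.39 (adjusted p = 0.98), and it was called in 0 of 18 alternative settings, with values from -0.52 to 0.49.

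For the genes that rose in males and for the Notch target Hes1, the stretch before the gene start is printed from RefSeq (GRCr8), because genes that move together are often compared by their promoters. RefSeq promoters were at hand for 7 of the 10 genes, not for Krt19, Krt7 or Sox9. Capitals mark TGANTCA, the site of AP-1, and TGGGAA, the core bound by RBPJ, the DNA-binding partner of Notch, searched on both strands. The marked stretches do not overlap. The sequences run 5′ to 3′ over the 250 bases before the start.
Epcam, chr6:12649679-12649928, minus strand: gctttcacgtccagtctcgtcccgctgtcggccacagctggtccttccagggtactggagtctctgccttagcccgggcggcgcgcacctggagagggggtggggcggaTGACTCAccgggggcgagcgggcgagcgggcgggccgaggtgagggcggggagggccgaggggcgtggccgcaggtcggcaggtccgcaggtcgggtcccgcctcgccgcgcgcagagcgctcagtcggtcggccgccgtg
Prom1, chr14:71202395-71202644, plus strand: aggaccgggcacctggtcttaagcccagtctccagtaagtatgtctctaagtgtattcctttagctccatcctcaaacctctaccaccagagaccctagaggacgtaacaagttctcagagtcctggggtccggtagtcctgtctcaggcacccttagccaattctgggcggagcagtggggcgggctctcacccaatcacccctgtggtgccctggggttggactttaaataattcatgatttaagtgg
Tspan8, chr7:53330937-53331186, plus strand: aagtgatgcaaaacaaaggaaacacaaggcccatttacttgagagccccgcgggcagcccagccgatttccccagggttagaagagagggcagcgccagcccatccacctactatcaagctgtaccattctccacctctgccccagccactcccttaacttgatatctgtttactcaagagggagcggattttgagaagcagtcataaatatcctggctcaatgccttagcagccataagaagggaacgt
Hes1, chr11:84213046-84213295, minus strand: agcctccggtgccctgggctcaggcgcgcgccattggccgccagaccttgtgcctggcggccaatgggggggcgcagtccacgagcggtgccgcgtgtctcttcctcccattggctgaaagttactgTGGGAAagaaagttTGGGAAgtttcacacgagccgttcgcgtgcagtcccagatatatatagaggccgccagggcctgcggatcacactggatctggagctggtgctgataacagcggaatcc

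Hes1 held 2 copies of TGGGAA, the first 123 to 118 bases and the second 109 to 104 bases before the start, and Epcam held 1 copy of TGANTCA, 141 to 135 bases before it. Neither sequence was found in the Prom1 and Tspan8 stretches, nor in those of Spp1, Notch1 and Jag1. Of 33469 rat promoters of this length, 22.1% held TGGGAA and 6.34% held TGANTCA, so these matches are a description and not evidence of binding.

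The Notch receptor Notch1 was read by a pair of probes that gave different values at 2 mg/kg and between the sexes. The brighter probe was well above background on 48 arrays. It read -0.11, -0.30, -0.12, -0.19 and -0.36 in control males and -0.19, -0.49, -0.38, -0.40 and -0.23 at 2 mg/kg, a change of -0.12 ± 0.08 (limma adjusted p = 0.364). In females it read 0.22, -0.07, 0.26, 0.04 and 0.16 in controls and -0.21, -0.21, -0.02, -0.36 and -0.17 at 2 mg/kg, with 4 of 5 treated rats below all controls. That change of -0.40 ± 0.09 had an adjusted p of 0.0124 but was only 1.32-fold, so it was not called.

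The dimmer Notch1 probe was well above background on 23 arrays, all of males, and on none of 25 arrays of females. It read 4.16, 3.72, 3.47, 4.01 and 1.02 in control males and 0.99, 1.41, 2.29, 3.24 and 0.46 at 2 mg/kg. The low control is male 6 on slide 8, and 2 of 5 treated males lay below it. The change of -1.20 ± 0.41 passed the threshold (limma adjusted p = 0.0427, 2.29-fold lower), but it was called in only 7 of the 16 alternative settings that tested it, and leaving out single rats lost the call for 8 of 10 rats. On slides 5 to 8 every male read at most 2.45, and on slides 1 to 4 every male read at least 2.29. Within slides 2, 4 and 8 the difference between the male at 2 mg/kg and the control was -0.91, -1.72 and -0.55. With ratios scaled to an equal spread the change was -0.74 with an adjusted p of 0.0662. All female ratios of this probe lay between -0.29 and 0.08, and no fold is given for females.

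**Figure D3:**
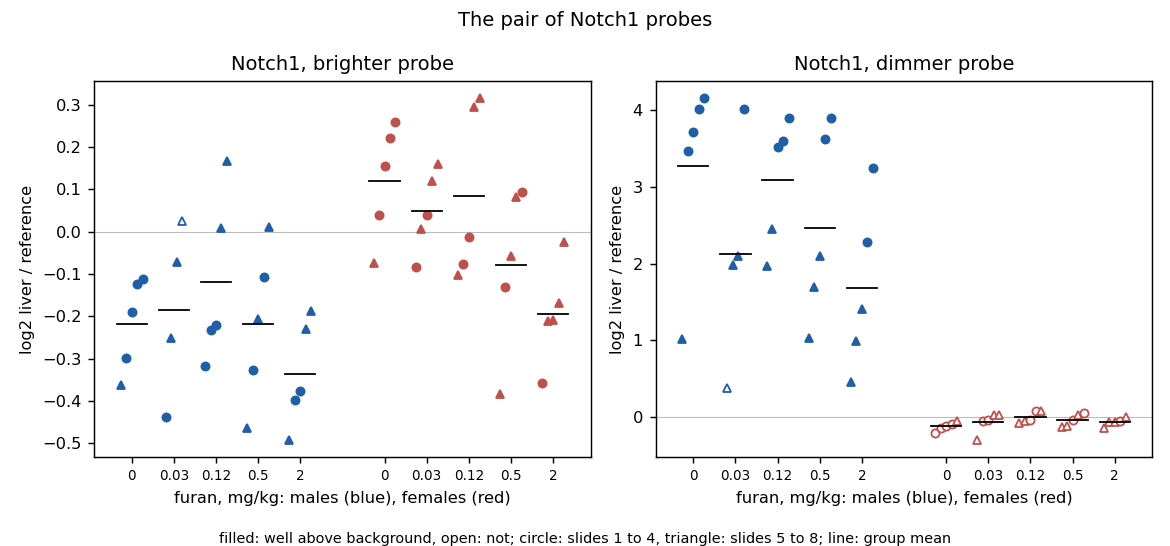
Log2 ratio of liver over reference (y axis) by furan dose in mg/kg (x axis) for the brighter (left) and the dimmer (right) Notch1 probe on each array, males blue and females red, with lines at group means. Open points were not well above background, circles mark slides 1 to 4 and triangles slides 5 to 8. The dimmer probe separates the sexes, and its male values are lower on slides 5 to 8.

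The ligand Jag1 ran from -2.11 to -1.31 in control males and from -2.38 to -1.05 at 2 mg/kg, and from -2.47 to -1.96 in control females and from -2.47 to -1.17 at 2 mg/kg. The ranges overlapped in both sexes, and the changes of -0.05 ± 0.18 and -0.17 ± 0.19 were not called (limma adjusted p = 0.884 and 0.699). Jag1 was well above background on 32 arrays. The target Hes1 was well above background on 1 array, of a male at 0.12 mg/kg. Its ratios in control males ran from -3.22 to -1.49 and at 2 mg/kg from -3.33 to -1.03, and no change can be read from a signal at background.

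The next question was whether the sexes differed. In control rats, 1 of the 8 genes was called, beside 5.5% of all probes, and this was Prom1. Its ratio of 0.56 ± 0.54 (SD, n = 5) in control males and 5.06 ± 0.84 in control females differed by -4.60 ± 0.34 (SE), or 24.2-fold, with a limma adjusted p of 7.8e-13. No male of any group read above 2.50 and no female below 2.97, so the sexes did not overlap at any dose. The dimmer Prom1 probe gave -4.21 ± 0.35 (adjusted p = 1.23e-11), and within slides 1 to 4 the brighter one gave -5.04, -5.30, -5.18 and -3.23.

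On Notch1 the pair of probes differed between the sexes in opposite directions. The brighter probe was lower in control males by -0.38 ± 0.08 (limma adjusted p = 0.00104, 1.30-fold), and on each of slides 1 to 4, by -0.38, -0.27, -0.34 and -0.41. The dimmer probe was higher in control males, on average 3.27 against -0.12, and at least 7.60-fold by the bound that female arrays below background allow (adjusted p = 1.75e-08). It entered the test only through groups of males, the sex in which it was high, so this p value is not independent support. Within slides 1 to 4 that difference was 3.55, 4.36, 3.86 and 4.12. Krt19, Krt7, Epcam, Spp1, Tspan8 and Jag1 differed between control sexes by -0.05 to 0.20, with none called.

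As for the response to 2 mg/kg, the difference between males and females was called for 0 of the 8 genes (limma) and for 0.108% of all probes. At an unadjusted p under 0.05 it was 2 of 8, beside 14.5% of all probes. The largest among the brightest probes of the 8 genes was that of Prom1, with 1.91 ± 0.48 and an adjusted p of 0.084, where males were higher than controls and females lower. Without the dim array it was 1.93 with an adjusted p of 0.0348 and was called, and with ratios scaled to an equal spread it was 0.80 with an adjusted p of 0.501. For Tspan8 the difference was 0.02 (95% interval from -0.40 to 0.45), for Krt19 0.10 (from -0.55 to 0.74) and for Epcam 0.36 (from -0.11 to 0.82).

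At lower doses no member was called. In males, limma called 0 of 8 genes at 0.03, 0.12 and 0.5 mg/kg, beside 0%, 0.176% and 0.142% of all probes, and 4, 0 and 0 genes had an unadjusted p under 0.05, as had 24.5%, 4.83% and 8.27% of all probes. The first of these groups includes the dim array. In females it called 0 of 8 at 0.03, 0.12 and 0.5 mg/kg, beside 0.00566%, 0.00566% and 0.017% of all probes, with 0, 0 and 1 gene at an unadjusted p under 0.05, as had 4.44%, 6.05% and 11.4% of all probes. At 0.5 mg/kg in males the estimates for Krt19, Prom1 and Tspan8 were 0.33 ± 0.23, 0.68 ± 0.35 and 0.29 ± 0.15, between those at 0.12 and at 2 mg/kg. For Tspan8 in females they were 0.18, 0.29, 0.29 and 0.73 from the lowest dose up, each ± 0.15 or 0.16. All doses share the same controls, so these estimates are not independent of each other.

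An effect at any dose, by limma's F test, was found in males for 5 of 8 genes, beside 12.2% of all probes. These were Epcam, Tspan8, Prom1, Jag1 and Krt19, with adjusted p values of 0.000708, 0.00767, 0.0443, 0.0475 and 0.0488. The Prom1 value is that of the brighter probe, and the dimmer one did not pass this F test (adjusted p = 0.0904). Tspan8 was tested only because males given 2 mg/kg were bright enough for it. Among females such an effect was seen for 0 of 8 genes, beside 0.798% of all probes. At an unadjusted p under 0.05 it was 4 of 8 there, beside 13.4% of all probes. For Jag1 the estimates in males were 0.52, -0.03, -0.29 and -0.05 from the lowest dose up, the first of which includes the dim array.

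**Figure D4:**
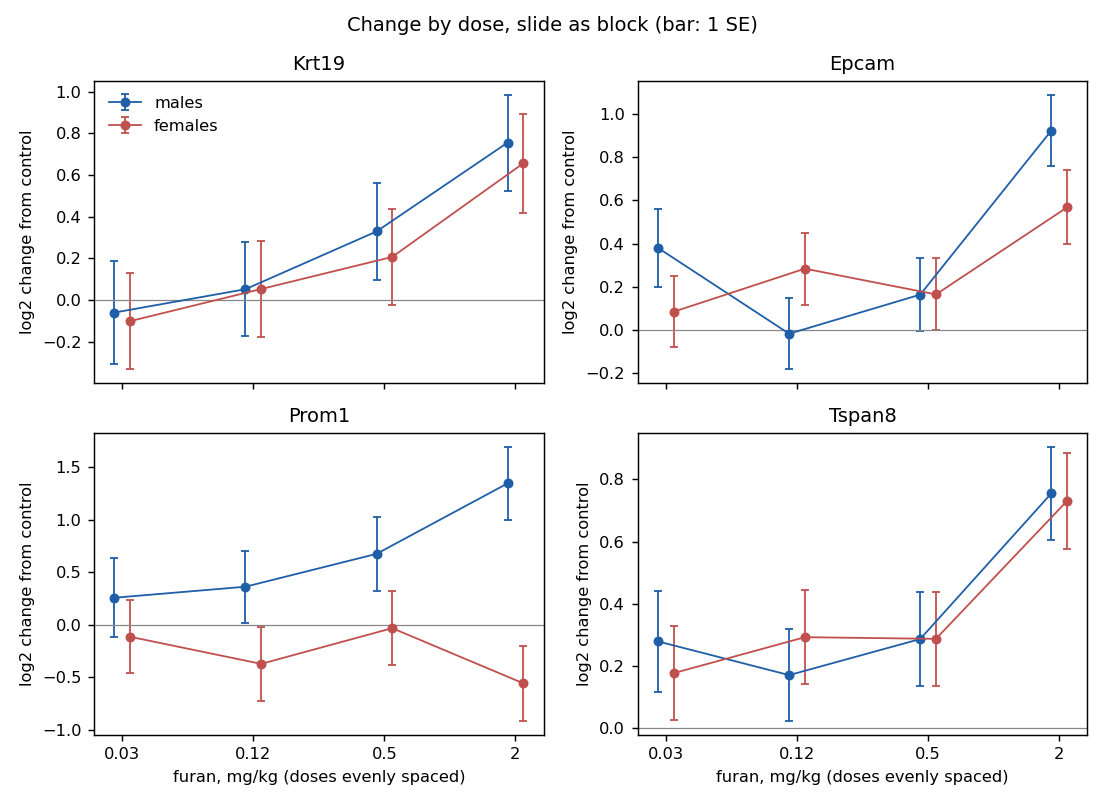
Log2 change from control (y axis) at each furan dose in mg/kg, evenly spaced (x axis), for Krt19, Epcam, Prom1 and Tspan8 in males (blue) and females (red), with slide as a block. Points are limma estimates and bars are 1 SE. Tspan8 reaches 0.75 in males and 0.73 in females at 2 mg/kg, and the male value at 0.03 mg/kg includes the dim array.

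Other genes of the same cells and pathway were taken from lists of well-known genes. Of 32 other bile duct genes, 28 had a probe and 22 were tested. In males at 2 mg/kg, 5 of these were called and all rose, against 3.83% of all probes called, with a median log2 change of 0.24 over the list against -0.02 over all probes. They were the keratins Krt18 (1.26 ± 0.23, limma adjusted p = 0.000406), Krt8 (1.20 ± 0.22, adjusted p = 0.000423) and Krt20 (1.09 ± 0.26, adjusted p = 0.00351), the chloride channel Cftr (0.94 ± 0.20, adjusted p = 0.00177) and the annexin Anxa4 (0.65 ± 0.18, adjusted p = 0.0141). Krt8 and Krt18 are also the keratins of hepatocytes. Cftr was well above background in 2 of 5 control males and 4 of 5 males at 2 mg/kg, the only group through which it entered the test. Anxa4 was not called without the slide block (0.62, adjusted p = 0.0583), without male 87 (0.56, adjusted p = 0.0628), without slide 8 (0.49, under the fold limit), with ratios scaled to an equal spread (0.61, adjusted p = 0.143) or with median centring (0.83, adjusted p = 0.102). For Krt8, control males read -0.86, -0.51, -0.31, -0.71 and -0.08 and males at 2 mg/kg 0.51, 0.98, 0.83, -0.28 and 2.00, so 4 of 5 treated males lay above all controls.

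In females 1 of the 22 was called, Krt20, which rose by 1.04 ± 0.26 (limma adjusted p = 0.0299). That count was 3 without slide 8 (236 of all probes called in place of 116) or without male 87 (Krt20, Krt8 and Cftr). It was 0 without the slide block (118 of all probes) or with median centring (43). Krt20 was not called in either sex without the slide block, at 0.84 (adjusted p = 0.0925) in males and 0.59 (adjusted p = 0.213) in females. The other large values in females, among genes bright enough in both groups, were 0.67 ± 0.23 for Krt8 (adjusted p = 0.108) and -0.55 ± 0.49 for Krt23 (adjusted p = 0.608). The median over the list was 0.15 against 0.01 over all probes. Both sexes had 15 of 22 genes above 0 (68.2%), beside 46.2% of all probes in males and 51.7% in females.

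**Figure D5:**
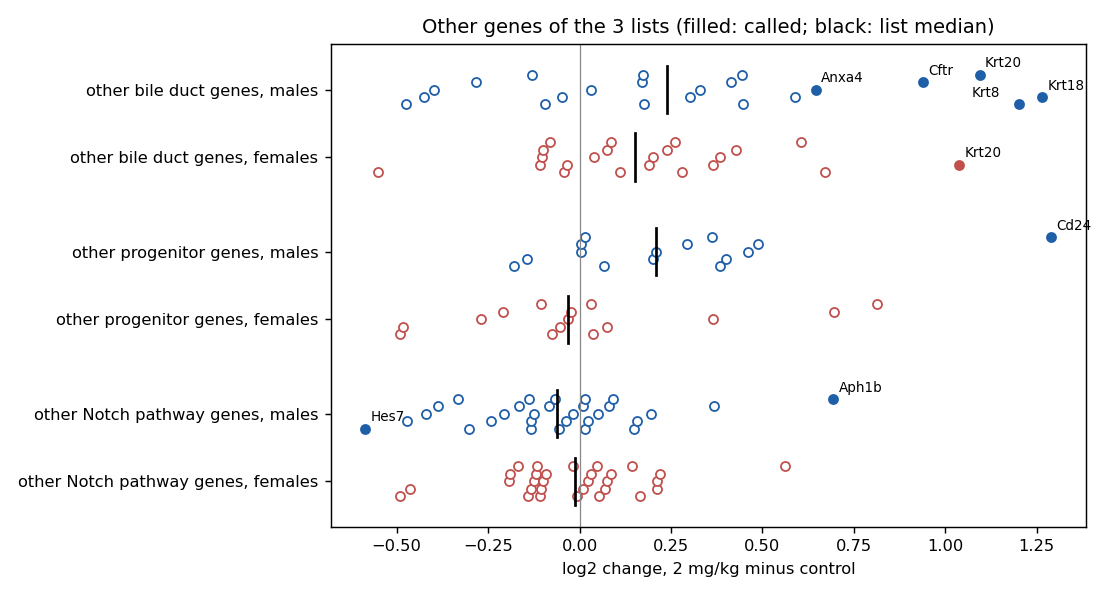
Log2 change from control to 2 mg/kg furan (x axis) for each tested gene of the lists of other bile duct, progenitor and Notch pathway genes, males blue and females red, with slide as a block. Filled points were called and named, and the black line is the list median, which is 0.24 for bile duct genes in males and -0.06 for Notch pathway genes in males.

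Of 22 other progenitor and ductular reaction genes, 15 were tested. In males 1 was called, Cd24, a surface protein of progenitor and bile duct cells, which rose by 1.29 ± 0.22 (limma adjusted p = 0.000176). A count of 1 in 15 is near the 3.83% of all probes called. Its ratio went from -2.15, -1.91, -2.58, -1.76 and -2.17 in control males to -0.79, -1.17, -0.67, -0.90 and -0.65 at 2 mg/kg, and all 5 treated males lay above all controls. The list median was 0.21 in males, with 13 of 15 genes above 0 (86.7%, beside 46.2% of all probes), and -0.03 in females, with 6 of 15 above 0 (40%, beside 51.7%) and 0 called. The next values in males were 0.49 ± 0.34 for the secreted protein Ccn2 (adjusted p = 0.362) and 0.46 ± 0.23 for the receptor Tnfrsf12a (adjusted p = 0.191). In females they were 0.81 ± 0.37 for the fetal liver protein Afp (adjusted p = 0.246), 0.70 ± 0.45 for the aldehyde dehydrogenase Aldh1a1 (adjusted p = 0.44) and -0.48 ± 0.33 for Ccn1 (adjusted p = 0.47). Cd24 in females read 0.36 ± 0.22 (adjusted p = 0.409).

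Of 46 other Notch pathway genes, 30 were tested, and 1 rose and 1 fell in males, a share near the 3.83% of all probes called. Aph1b, a subunit of the gamma-secretase that cleaves the receptor, rose by 0.69 ± 0.13 (limma adjusted p = 0.000502), and Hes7, a gene of the Hes family, fell by 0.59 ± 0.15 (adjusted p = 0.00852). Another gamma-secretase subunit, Psenen, read -0.47 ± 0.11 in males (adjusted p = 0.00354), below the fold limit. In females 0 of 30 were called, though without slide 8, where 236 of all probes were called, there was 1, Aph1b (0.73, limma adjusted p = 0.00416). Aph1b read 0.56 ± 0.13 in females (adjusted p = 0.0224), also below the fold limit, followed, among genes bright enough in both groups, by 0.21 for both Aph1a and Numb (adjusted p = 0.388 and 0.343). The list medians were -0.06 in males and -0.01 in females, close to those of all probes. Without the slide block Aph1b read 0.58 in males and, under the fold limit, was not called, and neither was Hes7 (-0.85, adjusted p = 0.0955). Hes7 was also not called with ratios scaled to an equal spread (-0.49, adjusted p = 0.241), with median centring (-0.43, adjusted p = 0.0793) or without male 87 (-0.52, under the fold limit).

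Markers of other cell types were read beside these genes. Of 12 tested stellate cell and fibroblast genes 0 were called in males at 2 mg/kg by limma, and the median change was 0.37. Without the dim array 3 were called, where 895 of all probes were called in place of 677. Without slide 8 the median was 0.10 and without male 87 it was 0.20, with 0 called in both cases. The mean of that list ran from -1.64 to -1.10 in control males and from -1.44 to -0.27 at 2 mg/kg, with male 87 highest. Male 87 was also highest of the control and 2 mg/kg males for the mesothelium list, at 0.06 against -1.48 to -0.54 in controls, and for Krt19, Epcam, Prom1, Tspan8 and Spp1. Of 12 macrophage genes 1 was called, Gpnmb (1.24 ± 0.36, adjusted p = 0.0174), with a list median of -0.18, but 0.14 with ratios scaled to an equal spread. Without male 87 Gpnmb read 0.80 (adjusted p = 0.132) and without slide 8 it read 0.70 (adjusted p = 0.116). It was not called either without the slide block (adjusted p = 0.0823), without slides 5 and 6 (adjusted p = 0.0519) or with ratios scaled to an equal spread (adjusted p = 0.0604). Of 10 hepatocyte genes 1 fell, the tyrosine aminotransferase Tat, by 1.05 ± 0.33 (adjusted p = 0.0314), and the list median was -0.45, but 0.17 with ratios scaled to an equal spread. With such ratios Tat read -0.72 (adjusted p = 0.325), and it was not called without the slide block (-1.44, adjusted p = 0.212) or with median centring (-0.79, adjusted p = 0.0765) either. None of the endothelial (4 tested), lymphocyte (4), neutrophil (3), pancreas acinar (5), mesothelium (4) and cell cycle (7) genes was called in males, and none of any of these lists was called in females. In alternative settings 1 stellate cell and fibroblast gene was called lower in females, with scaled ratios or without the slide block. Without the dim array 1 pancreas acinar gene was called lower in them. The part of these cells in the rises was not tested.

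Rats of one group also differed among themselves, and some genes did so together. After group means and slides were removed, over 48 arrays without the dim one, the highest Pearson r among the 8 genes was 0.73 for Epcam with Spp1, followed by 0.70 for Krt19 with Tspan8 and 0.60 for Epcam with Tspan8. The lowest was -0.22 for Prom1 with Jag1. Krt7 and Krt19, which are markers of the same cells, had an r of 0.23. The arrays share slides and their brightness, so these values are descriptions only.

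Among all named genes, those most like Tspan8 were Kif12 (r = 0.84), Adgrg1 (0.76), Cftr (0.72), Lama5 (0.70) and Krt19 (0.70). Those most like Epcam were Pla2g7 (0.83), Anxa5 (0.82), Timp1 (0.79), the immunoglobulin-like gene Igsf7 l1 (0.78) and Fbn1 (0.78). For Krt19 they were Cx3cl1 (0.81), Gng13 (0.78), Lgals2 (0.76), Pum3 (0.73) and Sparcl1 (0.73), and for Prom1 they were Clic5 (0.82), Fnta (0.75), Gas6 (0.75), Actg1 (0.72) and Abcg2 (0.69).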

How the data were processed

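Liver RNA of 49 F344 rats was measured on 2-colour Agilent arrays. The labels say that quality control removed 1 array of a male. The dim array kept here is among the 49 deposited, and males at 0.03 mg/kg, with 4 arrays in place of 5, are the only short group. The removed array thus appears to be another male of that group. The deposited scanner files, made with Agilent Feature Extraction 10.7.3.1, hold each spot's signal and local background as median intensity, a log10 ratio of liver over reference after the software's own background subtraction and dye normalisation, and quality marks of each spot (other values, 0 or 1). The authors also deposited a series matrix of normalised log2 ratios. On 46 of 49 arrays a column matched, always in the same group but only for 7 under the same animal, so it was used for groups alone and without slide.

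Here median signals were background corrected (normexp, offset 50) and loess normalised within each array in limma 3.58.1 (R 4.3.3, statmod 1.5.0, with version 1.17.8 of data.table for reading). Marked spots were left out, and the spots of a probe were averaged. Of 62976 spots, 58717 measured transcripts with 30367 probes. A probe was tested when 4 or more arrays of some group had a liver signal well above background (17661 probes). RefSeq names (GRCr8, names only, since the array design is older) matched 18004 probes. A gene was counted by its brightest probe, and all probes of the 10 genes are given.

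One limma model held a mean for each of the 10 groups and slide as a fixed block, with a spread shared by all groups. Tests were 2-sided, and p values were adjusted by Benjamini-Hochberg over all tested probes. Steps were tested on simulated data. The 10 genes, the lists and the tests were chosen with earlier results of these data known. From each list, genes called at 2 mg/kg in either sex are named, and so are the 3 with the largest change in each sex among probes bright enough on 4 or more arrays of both groups. For each of the 10 genes called at 2 mg/kg, the 5 most correlated named genes are given. Alternatives covered the slide block, dim array, background correction, normalisation, filter, array weights, probe rule and single rats. The array count limits precision.

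Equal individual numbers in males and females are of different rats. Deviations of 8 such pairs correlated at -0.21 to 0.29, with 2 over 0.1, so the numbers do not pair the samples.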

Additional observations from a re-analysis of the deposited data

Results flagged for a closer look

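Each of the 10 tested probes was looked at in each of the 10 groups, which gave 100 sets of 4 or 5 values. In 9 of these sets, 1 array lay far from the rest of its group by Dixon's test for a single outlying value. Chance alone gives such a value in about 1 in 20 independent sets. These sets share arrays and slide was not removed, so the 9 cannot be set against that rate. All values are log2 ratios of liver over reference.

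Control male 6, the only male control on slide 8, gave 3 of the 9. It read -0.48 for Tspan8, where the next control read -1.28, and its Tspan8 spots were not well above background. It read -1.31 for Jag1 (next -2.02), also not well above background, and 1.02 on the dimmer Notch1 probe (next 3.47). Without it, the changes in males at 2 mg/kg kept their calls for Epcam, Prom1 and Tspan8, and Krt19 read 0.73 with a limma adjusted p of 0.0566.

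The dim array of male 26 at 0.03 mg/kg, which is not well above background for Spp1, read -0.39 for that gene, where the next male read -4.09. Control male 5 read 1.06 on the dimmer Prom1 probe, where the next control read 0.31.

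In females, animal 62 at 0.5 mg/kg read 0.54 for Krt19 (next 0.19), animal 49 at 0.12 mg/kg read -1.32 for Epcam (next -0.73), and control 11 read -2.47 for Jag1 (next -1.99). Animal 32 at 0.03 mg/kg read -0.29 on the dimmer Notch1 probe (next -0.05), which was not well above background in any female.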

How the results depend on the processing

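The counts of genes called below are of 8 tested, by limma, apart from the settings that changed the filter. A filter that asked for signal on most of the 49 arrays left Tspan8 untested, so the female 0 there is not a lost call. With no filter Hes1 was tested as well. In males at 2 mg/kg the 4 calls became 2 without the slide block, with 389 of all probes called in place of 677, and 2 to 4 when single rats were left out (2 without male 87). The other 17 settings gave 3 to 5, with Krt19 called in 15 of 18 settings, Prom1 in 14, Spp1 in 2 and Notch1 in 1, with probes averaged. In females the single call at 2 mg/kg became 3 with array weights (463 of all probes in place of 116), 2 with the authors' ratios (286), with slide as a random block, without the dim array (250), without both the dim array and the block (300) or without slide 8 (236), and 0 with the liver channel alone (18), median centring (43), the scanner's ratio or a filter that asked for signal on most of the 49 arrays. Leaving out single rats gave 0 to 1, with 0 without female 83 or 90 at 2 mg/kg (adjusted p = 0.0556 and 0.0521 for Tspan8). The sex difference in response went from 0 to 1 with array weights (216 of all probes in place of 19) or without the dim array (185), and to between 0 and 1 without single rats. In control rats 1 call became 2 with median centring, which moved the median of all probes by -0.19 and gave -0.72 for Notch1, and 2 with probes of a gene averaged, where Notch1 turned from -0.38 to 1.58 (adjusted p = 4.59e-07) because the mean takes in the dimmer probe. It was 1 in each case without single rats.

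An effect at any dose in males, 5 genes as reported, was found for 3 with scaled ratios, without background correction, without slide 8 or without slides 5 and 6, for 2 with array weights, median centring or no filter, for 1 with the authors' ratios or without the slide block, with or without the dim array, and for 0 with the males alone. Single rats gave 1 to 6. In females 0 genes became 4 with array weights and 2 with slide as a random block, without slide 8 or without the dim array, and 0 to 1 without single rats. At 0.03 mg/kg in males, leaving out single rats gave 0 to 3, with 3 without male 22 or 25, where the dim array was 1 of 3. The other lower doses gave 0 under each alternative run. Counts over all probes move with the setting too. In males at 2 mg/kg they ran from 389 without the slide block to 1003 with the scanner's ratio. The counts of genes in this paragraph are given without such shares and describe the settings only.

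Taking same-numbered males and females as a replicate block gave 0 calls for the sex difference in response and 1 in controls, the same counts as without it, with a correlation of 0.0653 within numbers. The slide correlation as a random block was 0.536. Alternatives with scaled ratios, with the authors' ratios and without slides 8 or 5 and 6 were chosen after seeing the data. Signal over background limits Tspan8, Jag1, Hes1 and the dimmer Notch1 probe most, and 4 of 5 controls against 1 or 2 of 5 rats at 2 mg/kg lay on the slides with the wider ratios, so slide scale and dose are only partly separable.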
